A study of Mus musculus with 6 samples.

Results

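The genes described here are 37 genes of sterol and fatty acid synthesis and of their control by the SREBP transcription factors, out of 49671 genes in the deposited count tables. They were chosen by symbol from the textbook pathway and matched to the tables by gene identifier. The rule sets no condition on measured values, but the genes were chosen with earlier results of these data known. They comprise 8 genes of the mevalonate pathway, 11 of the steps from squalene synthesis to cholesterol, 5 regulators, 1 sterol transport protein, 9 genes of fatty acid synthesis and desaturation, and 3 targets of the LXR receptors. All 37 were found, and 36 passed the filter on low counts. The exception was Abca1.

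The study sequenced RNA of OT-I cells, CD8 T cells whose transgenic receptor recognises the ovalbumin peptide SIINFEKL, from mouse splenocyte cultures in which antigen-presenting cells displayed that peptide. All 6 libraries carry the OT-I genotype, received SIINFEKL and were collected 48 h after the start of stimulation, and there was no unstimulated group. There were 3 treatments with 2 libraries each: an isotype control, BiTS(mut), and BiTS, a bispecific molecule that brings the inhibitory receptor LAG-3 close to the T cell receptor. The sources used here do not give what was changed in BiTS(mut), the strain background, or the age and number of the mice. The labels call the cells naive CD8 T cells, and whether they were purified before RNA extraction is not stated. Nothing says that the libraries came from separate cultures or animals, so a p-value reflects only the spread among these libraries, and that spread may be technical. The spread used in a test was partly pooled over all genes. A p-value or SE is thus not the scatter of that gene's own libraries alone.

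The titles number the libraries 1 to 6. Those numbered 1 to 3, which are replicate 1 of each treatment, are called the first set here. Those numbered 4 to 6, which are isotype replicate 4 and replicate 2 of both BiTS(mut) and BiTS, are called the second set. The labels do not say that a set is a batch, a day or a litter. The sets stood further apart than the treatments: 52.7% of the 13996 genes tested differed between them. The libraries held between 10813123 and 15239077 gene counts. At these depths 3 counts, the most that a count of 0 leaves possible, equalled 0.197 to 0.277 CPM (counts scaled to a common library size), which covers counting error only. Every level below is in CPM after TMM scaling, which sets each library against the bulk of its own genes.

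Cholesterol and its isoprenoid precursors are made from acetyl-CoA through mevalonate, and fatty acids are made from the same acetyl-CoA by acetyl-CoA carboxylase and fatty acid synthase. When membranes of the endoplasmic reticulum are poor in sterol, SCAP escorts SREBP to the Golgi, where it is cut and released to switch on these enzymes, while INSIG proteins hold SCAP back when sterol is plentiful. Oxidised sterols act on the LXR receptors, which raise cholesterol efflux through Abca1 and Abcg1 and lower its uptake through Mylip. T cells switch on SREBP targets when they are activated and grow, because a dividing cell needs new membrane.

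The 250 bases before the annotated start were read from RefSeq (GRCm38.p6) for 29 of the 37 genes. They are shown here for 3 of the genes that differed strongly between the sets. Acat2, which also did, held no marked site and is not shown. SREBP is known to act at sterol regulatory elements together with factors that bind CCAAT boxes, and its part in the difference between the sets was not tested. The capitals mark each match to TCACNCCAC, a common form of the sterol regulatory element, and to CCAAT, on either strand, so that ATTGG is CCAAT read on the other strand. In Fasn a forward and a reverse CCAAT overlap, which gives a run of 8 capitals. The windows are chr13:119690101-119690350 on the plus strand for Hmgcs1, chr8:122443423-122443672 on the minus strand for Mvd, and chr11:120824548-120824797 on the minus strand for Fasn, each written 5′ to 3′ along the gene.
Hmgcs1: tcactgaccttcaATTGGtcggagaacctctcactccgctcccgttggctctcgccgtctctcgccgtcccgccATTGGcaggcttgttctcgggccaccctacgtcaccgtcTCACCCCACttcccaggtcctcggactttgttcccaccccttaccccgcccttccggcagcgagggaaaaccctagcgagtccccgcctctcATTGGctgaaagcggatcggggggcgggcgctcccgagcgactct
Mvd: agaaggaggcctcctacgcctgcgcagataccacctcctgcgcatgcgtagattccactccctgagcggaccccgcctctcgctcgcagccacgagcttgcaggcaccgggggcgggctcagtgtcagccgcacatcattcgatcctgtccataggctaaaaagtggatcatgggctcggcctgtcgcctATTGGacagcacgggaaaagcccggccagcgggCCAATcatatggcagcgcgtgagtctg
Fasn: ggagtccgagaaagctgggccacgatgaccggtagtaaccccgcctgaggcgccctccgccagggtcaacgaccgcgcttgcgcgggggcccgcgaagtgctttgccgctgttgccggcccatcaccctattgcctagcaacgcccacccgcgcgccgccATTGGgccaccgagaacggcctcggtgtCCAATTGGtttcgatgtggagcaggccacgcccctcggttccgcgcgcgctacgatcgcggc

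CCAAT was present in the window of 22 of the 29 genes (75.9%), and in 15 of the 16 mevalonate and sterol genes with a window, against 40.5% of the 9916 tested genes with a window. Among those 16 genes only Acat2 held none. TCACNCCAC was found in 1 of the 29, Hmgcs1, against 1.22% of tested genes, and it lay 137 bases before the start. All motifs were searched on both strands. The GC box GGGCGG was present in 24 of the 29 (82.8%), against 63.3%, and the E-box CACGTG in 6 of the 29 (20.7%), against 9.80%. The LXR repeat, AGGTCA written a second time after any 4 bases, was found in none of the 29 and in none of the tested genes. These matches describe letters in a window and not binding, and a window without a match says only that these letters are not in it.

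In level, the group was led by a desaturase and not by a sterol enzyme. Scd2, which puts the first double bond into saturated fatty acids, had a level of 151 CPM per kilobase of exon (range over the 6 libraries 120.1 to 174), above every library of every other member. Srebf2, the gene of the SREBP that mainly drives sterol genes, followed at 57.1 CPM per kilobase (54.4 to 60.2). Acly (47.5), Pmvk (45.1), Srebf1 (41.2), Fdps (40.2), Mvd (40.0) and Hmgcs1 (37.1) came next in CPM per kilobase, and the ranges of these neighbours overlapped. At the low end were Tm7sf2 (4.15), Acss2 (3.50), Hsd17b7 (3.07) and Mylip (1.39). Abca1, the main cholesterol efflux pump, was close to absent, at 0.0598 CPM per kilobase. Its level in CPM was 0.581, 0.975 and 0.741 in the first set and 0.551, 0.494 and 0.379 in the second, in the order isotype, BiTS(mut), BiTS. These are above the limit of 3 counts in each library but too low to be tested. The plot of levels per length shows that most sterol enzymes lay between the 2 extremes and shifted upward in the second set, while Scd2, Insig2 and Abcg1 shifted downward.

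**Figure D1:**
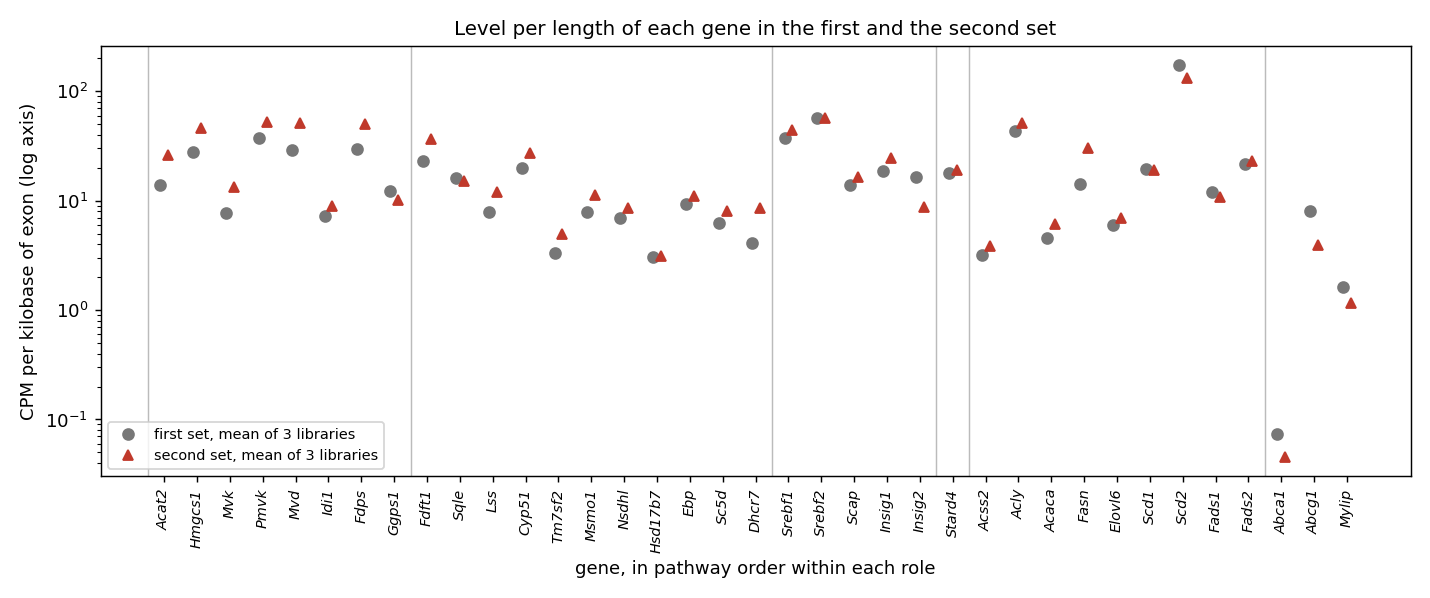
Level of each of the 37 genes in CPM per kilobase of exon on a log axis, by role in pathway order, as the mean of the 3 libraries of the first set (grey circles) and of the second set (red triangles). Scd2 is highest and Abca1 lowest. Upward and downward shifts are relative to the bulk of genes, and 21 of the 27 tested genes with a positive log2 fold change turn negative under spike-in scaling.

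The clearest pattern in these genes was the difference between the sets, and it was uneven across roles. Relative to the bulk of genes, 26 of the 36 tested members differed between the sets, 22 higher and 4 lower in the second set (edgeR's quasi-likelihood test with terms for group and set, adjusted p under 0.05 over all 13996 genes). Over all genes 52.7% were called, 25.9% higher and 26.9% lower. Members called higher outnumbered those called lower, whereas over all genes both shares were close. The median log2 fold change was 0.74 for the mevalonate genes, 0.45 for the sterol genes, 0.22 for the regulators, 0.19 for the fatty acid genes and −0.75 for the 2 tested LXR targets, against 0.02 for all genes. In 22 members all 3 libraries of the second set lay above all 3 of the first, which was so in 27.9% of genes, and in 5 they lay below, which was so in 27.8%. Together the sets did not overlap in 27 of 36 members and in 55.7% of genes.

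These directions hold relative to other genes in the same library and not per unit of added spike-in RNA. Spike-in transcripts took 3.36% to 7.54% of the counts, and scaling to them moved the median of all genes between the sets from 0.02 to −0.74, a shift of −0.76. Under that scaling 8 members were called, all lower (Insig2, Ggps1, Mylip, Sqle, Abcg1, Fads1, Scd2 and Scd1). Over all 13996 genes 6123 were called, 6062 of them lower. Of the 27 members above 0 with TMM scaling, 21 fell below 0. Acat2, Mvk, Mvd, Fdps, Dhcr7 and Fasn stayed above 0. The count of members above the median of all genes was 27 of 36 under either scaling. In bulk RNA, fewer cells of a type and less RNA per cell cannot be told apart.

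Markers of other cells moved with the sets, between which 25.9% of all genes were called higher and 26.9% lower in the second set. The 16 dendritic cell markers summed to 2308 to 2820.01 CPM in the first set and 1339.75 to 1485.65 CPM in the second, and 13 of the 14 tested were lower in the second set with none higher. Of these, Siglech was at 0 in every library and Cd209a under 1 CPM. The 11 macrophage markers summed to 57.1 to 63.6 CPM against 36.8 to 43.5 CPM, with Mertk, Fcgr1, C1qa, C1qb and Adgre1 under 1 CPM in every library. The 7 B cell markers summed to 9.70 to 13.9 CPM against 8.82 to 9.55 CPM, with Pax5, Cd79a and Ms4a1 under 1 CPM in every library. The 8 T cell markers summed to 1742 to 2160.09 CPM against 2246 to 2495 CPM, and 6 of 8 were higher in the second set relative to the bulk of genes, while under spike-in scaling 0 were called higher and 1 lower. The part of these cells in the results on the sets was not tested.

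**Figure D2:**
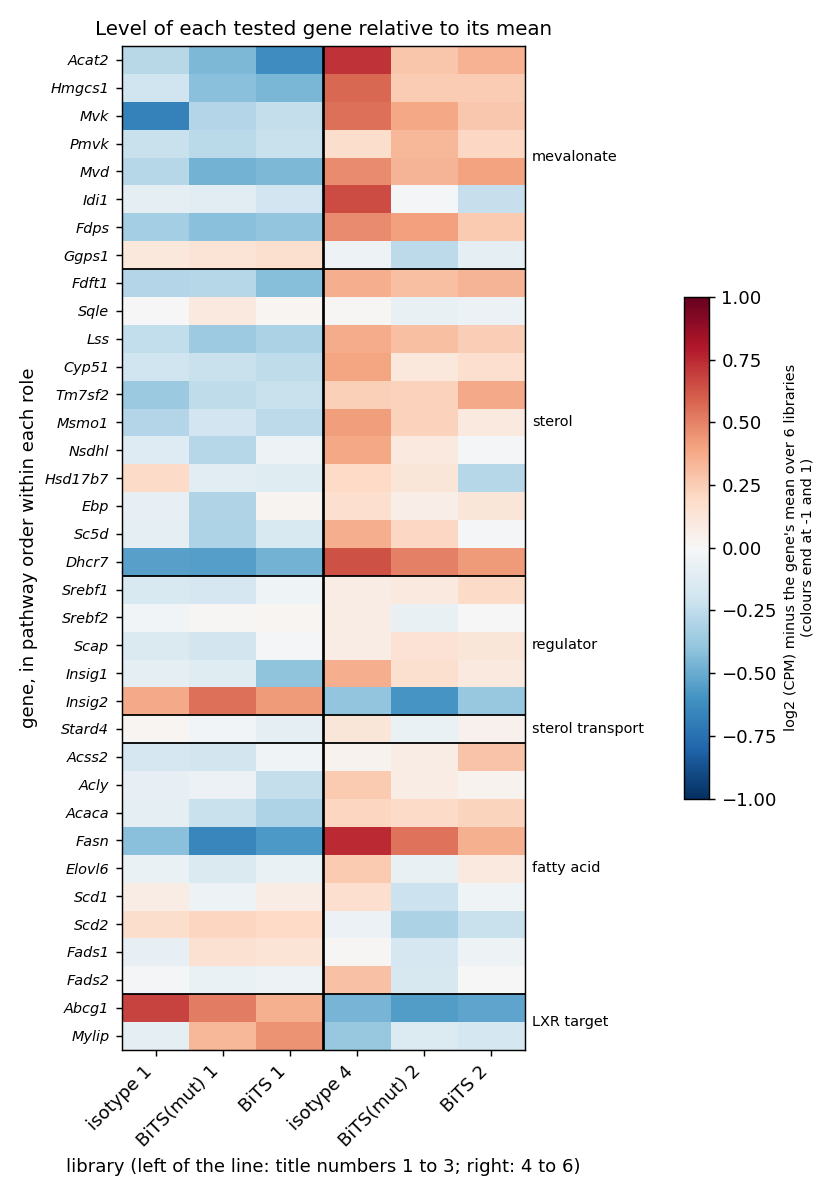
Level of each of the 36 tested genes (rows, by role in pathway order) in each of the 6 libraries (columns), as log2 CPM minus the gene's mean over the libraries; red is above and blue below the mean, and colours end at −1 and 1. The line separates the first set (left) from the second (right). Most mevalonate and sterol rows turn from blue to red across the line relative to the bulk of genes, while Insig2 and Abcg1 turn from red to blue. Of the 19 mevalonate and sterol genes, 17 have a log2 fold change above 0 with TMM scaling and 5 under spike-in scaling.

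Of the 8 mevalonate genes, 7 rose in the second set relative to the bulk of genes and 1 fell. Hmgcs1 (chr13:119690462-119708086), which joins acetyl-CoA and acetoacetyl-CoA to HMG-CoA, was at 100.7, 86.5 and 84.4 CPM in the isotype, BiTS(mut) and BiTS libraries of the first set and at 172, 138 and 138 CPM in those of the second. The sets did not overlap, and isotype replicate 4 was the highest library. The log2 fold change was 0.72 ± 0.07 (SE), or 1.65-fold, with an adjusted p of 2.8e-12 (edgeR). Acat2 (chr17:12942890-12960747), the thiolase that makes acetoacetyl-CoA, was at 39.8, 35.3 and 31.4 CPM in the first set and at 79.5, 58.3 and 61.4 CPM in the second, a log2 fold change of 0.90 ± 0.08. Again every second-set library was above every first-set library.

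The later kinases and the decarboxylase moved in the same direction. Mvd (chr8:122433601-122443422), the mevalonate diphosphate decarboxylase, was at 58.6, 51.4 and 52.3 CPM and then at 99.3, 90.4 and 94.4 CPM, with a log2 fold change of 0.81 ± 0.07. Fdps (chr3:89093588-89101959), which builds farnesyl diphosphate, was at 129, 122 and 124.5 CPM and then at 227, 217 and 196 CPM, with 0.77 ± 0.07 on the log2 scale. Mvk and Pmvk, the kinases that phosphorylate mevalonate, had log2 fold changes of 0.79 ± 0.11 and 0.48 ± 0.07.

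The mevalonate genes that differed from this pattern were Ggps1 and Idi1. Ggps1 (chr13:14052449-14063401), which makes geranylgeranyl diphosphate for protein prenylation and so leads away from sterols, was at 28.2, 28.9 and 29.3 CPM in the first set and at 25.3, 21.9 and 24.6 CPM in the second, and fell by 0.27 ± 0.10 on the log2 scale (adjusted p = 0.022, edgeR). Without either BiTS(mut) library Ggps1 was at −0.21 (adjusted p = 0.26) and without BiTS replicate 2 at −0.28 (adjusted p = 0.053), and DESeq2 did not call it (adjusted p = 0.11). Idi1 (chr13:8885501-8892451), which interconverts the isoprene units isopentenyl and dimethylallyl diphosphate, was at 25.9, 25.4 and 24.1 CPM in the first set and at 43.2, 27.1 and 23.5 CPM in the second. The isotype libraries of Idi1 lay far apart between the sets and the others did not: the BiTS library of the second set was the lowest of all 6. Its log2 fold change of 0.28 ± 0.11 (adjusted p = 0.031, edgeR) became 0.02 without isotype replicate 1 and 0.03 without isotype replicate 4. Neither value was called.

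Among the 11 sterol genes 8 rose in the second set relative to the bulk of genes and 0 fell. Dhcr7 (chr7:143823145-143848410), the reductase that completes cholesterol, moved furthest: it was at 23.6, 23.5 and 24.8 CPM in the first set and at 53.4, 48.7 and 46.3 CPM in the second. That is 2.06-fold, or 1.04 ± 0.09 on the log2 scale (adjusted p = 1.8e-13, edgeR), and the sets did not overlap. Fdft1, the squalene synthase that commits farnesyl diphosphate to sterols, had a log2 fold change of 0.67 ± 0.07, with 26.8% of its exon bases shared with Ctsb on the opposite strand, whose reads cannot be told apart without the strand setting. Lss, which closes squalene epoxide into lanosterol, had 0.62 ± 0.07. Cyp51, the lanosterol demethylase, had 0.45 ± 0.07, and Msmo1, which removes methyl groups from the ring, had 0.50 ± 0.08.

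Tm7sf2, a sterol reductase that shares 15.3% of its exon bases with Vps51, rose by 0.56 ± 0.12 on the log2 scale. Nsdhl (0.31 ± 0.11) and Sc5d (0.38 ± 0.09), enzymes of demethylation and desaturation, were also called, but both calls depended on single libraries. Sc5d was at 0.30 without either BiTS(mut) library (adjusted p = 0.061 without replicate 1 and 0.063 without replicate 2). Nsdhl was at 0.20 without either isotype library and at 0.27 without either BiTS(mut) library, with adjusted p from 0.15 to 0.17, and DESeq2 did not call it (adjusted p = 0.12).

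Sqle (chr15:59315077-59331192), the squalene epoxidase and a rate-controlling sterol enzyme, stood apart from its neighbours in the pathway. It was at 87.3, 92.9 and 88.2 CPM in the first set and at 87.9, 82.5 and 83.5 CPM in the second. The libraries of the sets overlapped, and the log2 fold change of −0.08 ± 0.07 was not called (adjusted p = 0.35, edgeR). Hsd17b7 (0.03 ± 0.12) and Ebp (0.23 ± 0.11, adjusted p = 0.058) were not called either, although Ebp was called without BiTS replicate 2 (0.30, adjusted p = 0.047).

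Relative to the bulk of genes 3 of the 5 regulators rose and 1, Insig2, fell. Insig1 (chr5:28071363-28078662), itself an SREBP target that retains SCAP, was at 62.0, 60.6 and 49.9 CPM in the first set and at 84.9, 73.9 and 70.5 CPM in the second, so that the sets did not overlap. Its log2 fold change was 0.41 ± 0.08 (adjusted p = 1.3e-05, edgeR). Insig2 (chr1:121304353-121332589), the paralog with the same retaining function that is not driven by SREBP in the same way, was at 53.8, 60.8 and 55.5 CPM and then at 31.6, 27.6 and 31.9 CPM. Insig2 thus fell by 0.91 ± 0.09 on the log2 scale, 1.87-fold, with an adjusted p of 5.3e-12 (edgeR).

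Srebf2 (chr15:82147266-82205376) was at 280, 287 and 288 CPM in the first set and at 300.1, 271 and 284 CPM in the second, a log2 fold change of −0.00 ± 0.07 with overlapping libraries. Srebf1 (chr11:60199089-60222581), whose SREBP-1 products act mainly on fatty acid genes, was at 208, 205 and 224 CPM and then at 243, 248 and 264 CPM, and rose by 0.25 ± 0.07 on the log2 scale (adjusted p = 0.0019, edgeR). Scap rose by 0.22 ± 0.07. Without either BiTS(mut) library Srebf1 was at 0.23 (adjusted p = 0.080 without replicate 1 and 0.077 without replicate 2) and Scap at 0.17 (adjusted p = 0.21). Stard4, which carries cholesterol through the cytosol, was at 0.06 ± 0.07 and was not called.

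Of the 9 fatty acid genes, relative to the bulk of genes, 4 rose, 1 fell and 4 were not called. Fasn (chr11:120805846-120824547), the fatty acid synthase, had the largest log2 fold change of all 36 tested members. It was at 171, 145 and 152.5 CPM in the first set and at 383, 331 and 291 CPM in the second. The lowest second-set library was far above the highest first-set library, and the log2 fold change was 1.10 ± 0.07, or 2.14-fold (adjusted p = 4e-18, edgeR). Acaca, the carboxylase that makes the malonyl-CoA used by Fasn, rose by 0.42 ± 0.07. Acly, which makes cytosolic acetyl-CoA from citrate, rose by 0.25 ± 0.07. Acss2, which makes it from acetate, rose by 0.26 ± 0.09, a call lost without either BiTS library (0.22 without replicate 1 and 0.23 without replicate 2, adjusted p = 0.10 for each), without either BiTS(mut) library (0.26, adjusted p = 0.11) and with DESeq2 (adjusted p = 0.091).

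The desaturases did not follow the synthase. Scd2 (chr19:44293676-44306864) was at 923, 949 and 939.5 CPM in the first set and at 786, 655 and 698 CPM in the second, and fell by 0.40 ± 0.07 on the log2 scale without overlap (adjusted p = 2e-06, edgeR). Scd1 (chr19:44394451-44407709), its close paralog, was at 97.6, 89.7 and 97.5 CPM and then at 104, 79.9 and 89.9 CPM. The Scd1 libraries overlapped, with a log2 fold change of −0.06 ± 0.07, and the counting of reads shared between Scd1 and Scd2 is not stated in the labels or file headers. Fads1 (−0.14 ± 0.09) and Fads2 (0.09 ± 0.10), the desaturases of polyunsaturated chains, and Elovl6 (0.19 ± 0.09), which lengthens palmitate, were not called. Fads1 was called without isotype replicate 1 or 4 (−0.26 for each, adjusted p = 0.017 and 0.016).

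Of the 3 LXR targets, 1 fell in the second set, 1 was not called and 1, Abca1, was too low to test. Abcg1 (chr17:31057698-31115777), which exports cholesterol to lipoproteins, was at 36.1, 32.3 and 29.0 CPM in the first set and at 16.4, 15.4 and 15.7 CPM in the second. The sets lay far apart, and Abcg1 fell by 1.03 ± 0.11 on the log2 scale, 2.04-fold (adjusted p = 2.2e-11, edgeR). Mylip (chr13:45389742-45412019), a ubiquitin ligase that lowers cholesterol uptake, was at 3.90, 5.27 and 5.70 CPM and then at 3.21, 3.79 and 3.70 CPM. Its log2 fold change of −0.47 ± 0.22 was not called (adjusted p = 0.066), but was without isotype replicate 1 (−0.56, adjusted p = 0.045) and without isotype replicate 4 (−0.55, adjusted p = 0.042). Of 10 other tested genes linked to LXR, 2 rose and 2 fell relative to the bulk of genes, with a median log2 fold change of 0.092. Over all genes 25.9% were called higher and 26.9% lower. Abcg1 is expressed by macrophages and dendritic cells as well as T cells, and the summed markers of those cells were lower in the same libraries; their part in the fall of Abcg1 was not tested.

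Read along the pathways and relative to the bulk of genes, 15 of the 19 mevalonate and sterol genes rose, and Fasn, Acaca, Acly and Acss2 rose with them. Of the 4 desaturases Scd1, Scd2, Fads1 and Fads2, Scd2 fell and the others were not called, and the LXR efflux gene Abcg1 fell. The plot of single genes by library shows these forms side by side: Hmgcs1, Acat2 and Fasn with the second set above the first, Insig2 and Abcg1 with it below, and Idi1 with the sets apart in the isotype libraries alone.

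**Figure D3:**
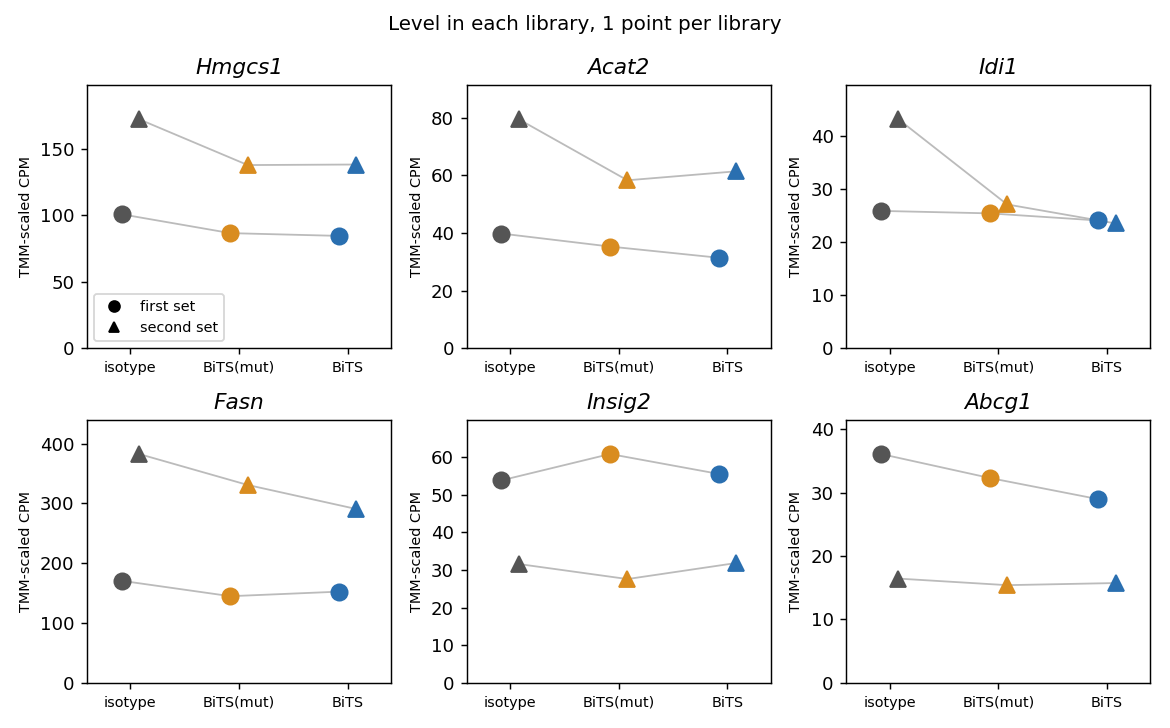
Level in TMM-scaled CPM (y axis, from 0) of 6 genes in each library, by treatment (x axis). Circles are the first set, triangles the second set, and grey lines join libraries of a set. For Hmgcs1, Acat2 and Fasn every triangle is above every circle and for Insig2 and Abcg1 below, relative to the bulk of genes (Hmgcs1 turns to −0.04 under spike-in scaling), and for Idi1 the isotype triangle at 43.2 CPM stands alone.

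The comparison of BiTS with isotype addresses how RNA levels in these bulk libraries of stimulated OT-I cultures differed with BiTS. Without a term for the set, 0 of the 36 members were called, and 0 had an unadjusted p under 0.05 (edgeR). Of all 13996 genes, the adjusted test called 0.0%, and 1.26% had an unadjusted p below 0.05. DESeq2 without the set term also called 0 members, beside 0 of all genes. With the replicate block, which compares libraries within a set, 3 members fell and 0 rose, against 3.4% of all genes called, 1.59% lower and 1.81% higher. At an unadjusted p below 0.05 there were 7 members, against 14.8% of genes. All 3 belong to the mevalonate pathway.

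Idi1 fell by 0.50 ± 0.14 on the log2 scale with the block, 1.42-fold (adjusted p = 0.024, edgeR). Within the first set the BiTS library was at 24.1 CPM and the isotype library at 25.9 CPM, a log2 difference of −0.10, and within the second they were at 23.5 and 43.2 CPM, a log2 difference of −0.88. The difference of Idi1 thus lay mainly in the second set. Leaving out isotype replicate 4 gave −0.13 (adjusted p = 0.77), leaving out BiTS replicate 2 gave −0.28 (adjusted p = 0.67), and leaving out isotype replicate 1 gave −0.84.

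Acat2 and Hmgcs1 were lower in BiTS in both sets. Acat2 was lower in BiTS by 0.34 on the log2 scale in the first set and by 0.37 in the second, and the blocked log2 fold change was −0.36 ± 0.10, 1.28-fold (adjusted p = 0.035, edgeR). Hmgcs1 was lower by 0.25 and 0.32, and the blocked value was −0.29 ± 0.09, 1.22-fold (adjusted p = 0.045, edgeR). The same genes differed between the sets by 0.90 and 0.72.

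The 3 calls were sensitive to single libraries and to the tool. Over the 6 fits that leave out 1 library each, which members were called changed, and so did the number called over all genes. The blocked log2 fold changes in those fits ran from −0.84 to −0.13 for Idi1, −0.43 to −0.27 for Acat2 and −0.33 to −0.24 for Hmgcs1. Without isotype replicate 4, Acat2 was at −0.27 (adjusted p = 0.28) and Hmgcs1 at −0.24 (adjusted p = 0.16), and without BiTS replicate 2 they were at −0.42 (adjusted p = 0.19) and −0.28 (adjusted p = 0.42). DESeq2 with the block called 0 of the 36, with adjusted p of 0.25 for Idi1, 0.22 for Acat2 and 0.16 for Hmgcs1. Over all 13996 genes it called 155. Spike-in scaling with the block also called 0 members, but it called 0 of all 13996 genes, so that 0 says nothing particular about these members.

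Isotype replicate 4 was the library with the highest level for 23 of the 36 members, and for 15 of the 19 mevalonate and sterol genes, against 19.7% of all genes. Isotype replicate 1 was highest for 1 of the 36. The median log2 difference of BiTS from isotype over the members was −0.00 in the first set and −0.14 in the second, where the mevalonate genes had −0.25, the sterol genes −0.21 and the fatty acid genes −0.17. In the first set these medians were −0.08, 0.01 and −0.00. Over all genes the medians were −0.00 and 0.00.

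Counted by direction alone, 18 of the 36 members (50%) were lower in BiTS in both sets, against 27.9% of all genes, and 6 (16.7%) were higher in both, against 28.1%. Of the other members, Fasn was lower by 0.16 and 0.40 on the log2 scale in the first and second set, with a blocked value of −0.28 ± 0.09 that was not called (adjusted p = 0.053, edgeR). Insig1 was lower by 0.31 and 0.27, with −0.29 ± 0.09 (adjusted p = 0.082). The lowest sterol gene was Hsd17b7, at −0.39 ± 0.15 (adjusted p = 0.17), with libraries at 17.8 and 17.9 CPM in isotype and at 14.3 and 12.8 CPM in BiTS.

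Among members above 0 in the blocked comparison, none was called. Srebf1 was at 0.11 ± 0.08 and was higher in BiTS in both sets, by 0.11 and 0.12 on the log2 scale. Acss2 was at 0.19 ± 0.11, Tm7sf2 at 0.14 ± 0.15 and Mylip, a low gene at 3.21 to 5.70 CPM, at 0.40 ± 0.27. Srebf2 (−0.02 ± 0.08), Sqle (−0.03 ± 0.09), Insig2 (0.03 ± 0.11), Pmvk (0.01 ± 0.09) and Ggps1 (0.01 ± 0.12) lay closest to 0, and Abcg1 was at −0.21 ± 0.13. The plot of both comparisons shows differences between treatments that are small beside those between sets.

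Cell markers also moved with BiTS. Dendritic cell markers summed to 2801 and 1397 CPM in isotype and to 2308 and 1339.75 CPM in BiTS, and 6 of the 14 tested fell with the block, against 1.59% of all genes called lower. T cell markers summed to 1742 and 2246 CPM in isotype and to 2160.09 and 2495 CPM in BiTS, and 3 of 8 rose with the block, against 1.81% of all genes called higher. Without the block, and with spike-in scaling and the block, 0 markers of either list were called, and neither fit called any of the 13996 genes. DESeq2 with the block called 3 dendritic cell markers lower and 3 T cell markers higher, beside 76 of all genes lower and 79 higher. Their part in the differences of Idi1, Acat2 and Hmgcs1 was not tested.

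**Figure D4:**
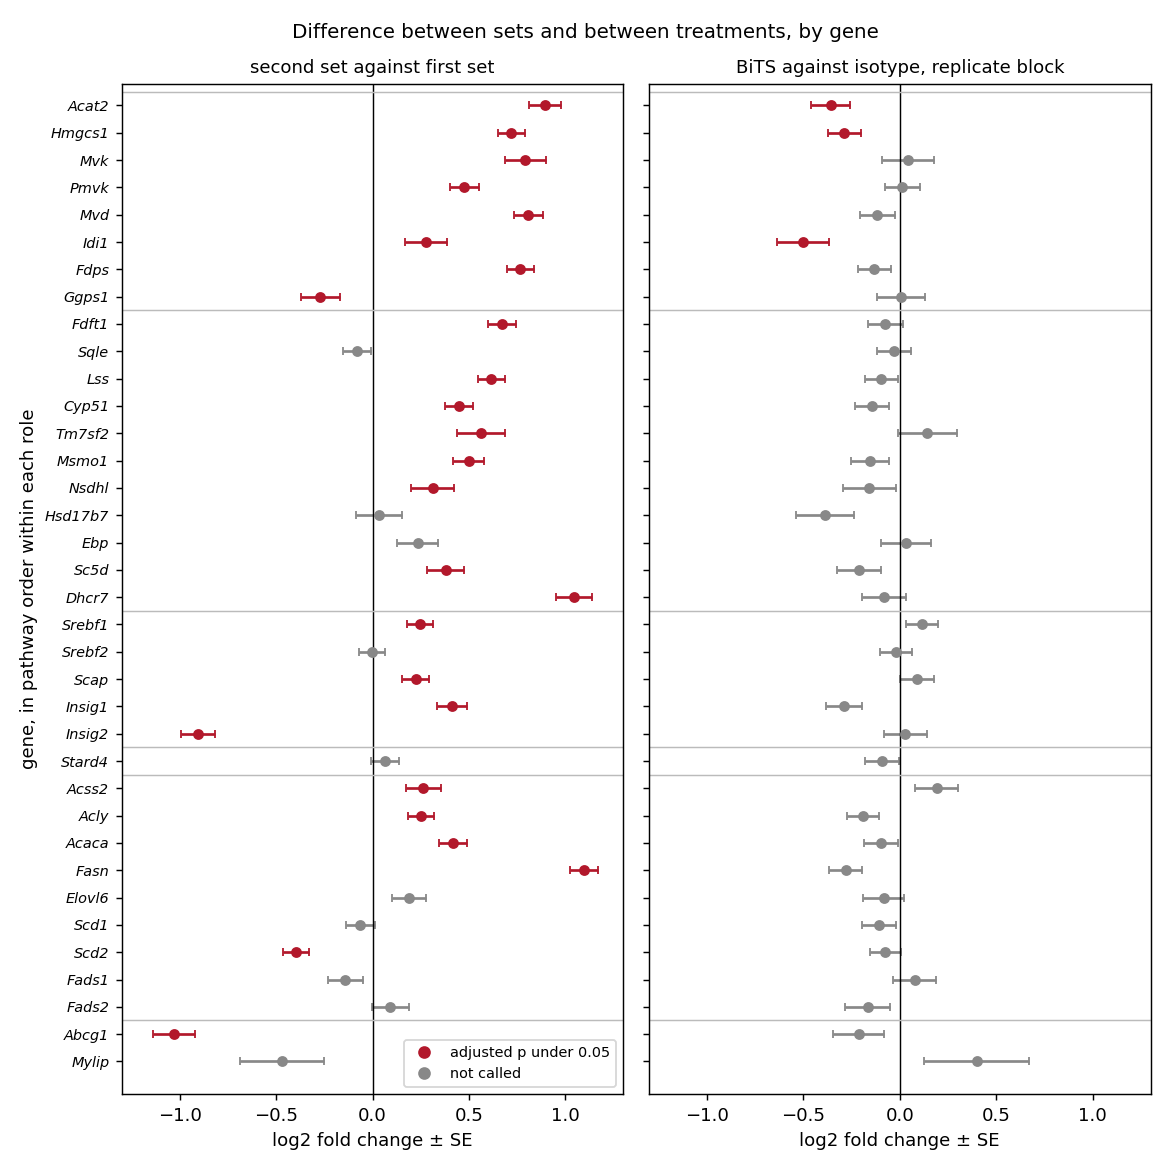
Log2 fold change ± SE (x axis) of each of the 36 tested genes (rows, by role in pathway order) between the sets (left, TMM scaling) and between BiTS and isotype with the replicate block (right). Red points have an adjusted p under 0.05: 26 on the left, 22 of them above 0 relative to the bulk of genes (21 of the 27 points above 0 fall below it under spike-in scaling), and 3 on the right, Acat2, Hmgcs1 and Idi1.

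When BiTS was compared with BiTS(mut), 0 of the 36 members were called with or without the block, and 0 had an unadjusted p under 0.05 in either fit (edgeR). DESeq2 also called 0 members in either fit, beside 51 of all genes with the block and 0 without it. In edgeR 0.972% of all genes were called with the block and 0.0% without it. The shares with an unadjusted p below 0.05 were 8.45% and 0.543%. The blocked values were −0.14 ± 0.14 for Idi1, −0.04 ± 0.10 for Acat2 and −0.02 ± 0.09 for Hmgcs1. The lowest was Hsd17b7 at −0.20 ± 0.15, and the highest were Ebp at 0.19 ± 0.13 and Acss2 at 0.18 ± 0.11. A total of 5 members were lower in BiTS in both sets, against 28.2% of genes, and 10 were higher in both, against 28.3%. Spike-in scaling with the block moved the median of all genes in this comparison to 0.18.

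Between BiTS(mut) and isotype, which uses the same isotype libraries as the comparison of BiTS with isotype, 0 members were called in either fit (edgeR), although 6 had an unadjusted p below 0.05 with the block. Over all genes the blocked fit called 0.05% and the unblocked fit 0.0%, and 4.43% and 0.293% had an unadjusted p below 0.05. Idi1 was at −0.37 ± 0.13, Acat2 at −0.32 ± 0.10 and Hmgcs1 at −0.27 ± 0.08 with the block, beside −0.50, −0.36 and −0.29 in BiTS against isotype. Without isotype replicate 1, Idi1 (−0.71, adjusted p = 0.0025) and Scd1 (−0.38, adjusted p = 0.035) were called. A total of 20 of the 36 members were lower in BiTS(mut) in both sets, against 23.9% of genes, and 1 was higher in both, against 25.1%. Spike-in scaling with the block moved the median of all genes here to −0.12.

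The rest of the lipid pathways were described from 81 further genes, of which 73 were tested. Between the sets 19 rose and 20 fell relative to the bulk of genes, beside 25.9% of all genes called higher and 26.9% lower, and their median log2 fold change was −0.02. Coq2, which attaches the isoprenoid tail of ubiquinone, rose by 0.99 ± 0.08, relative to the bulk of genes. Soat1, which esterifies cholesterol for storage, fell by 1.13 ± 0.08, Erlin1 and Erlin2, which take part in the degradation of sterol-regulated proteins, by 0.95 ± 0.09 and 0.98 ± 0.08, and Cd36, a fatty acid uptake receptor, by 1.84 ± 0.14.

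Between BiTS and isotype, 4 of these 73 genes rose and 2 fell with the block, beside 1.81% of all genes called higher and 1.59% lower. Without the block 0 of the 73 were called, beside 0.0% of all genes. Soat2, the other cholesterol-esterifying enzyme, was at 92.7 and 102 CPM in isotype, at 114.5 and 127 CPM in BiTS(mut) and at 137.5 and 158 CPM in BiTS, in the first and second set. The BiTS libraries were the highest and the isotype libraries the lowest in both sets, and the blocked log2 fold change of BiTS against isotype was 0.60 ± 0.08, 1.52-fold (adjusted p = 4.1e-06, edgeR). Npc1, which moves cholesterol out of lysosomes, rose by 0.33 ± 0.09 and Lpin1, a phosphatidate phosphatase, by 0.31 ± 0.09. Dgat1, which completes triglycerides, rose by 0.29 ± 0.09 (adjusted p = 0.0496, edgeR). Cyp27a1, a sterol hydroxylase, fell by 0.64 ± 0.19 (adjusted p = 0.049, edgeR). Of the calls of these 5 named genes, only that of Soat2 was kept over all 6 fits that leave out 1 library (0.57 to 0.63) and in DESeq2 with the block (0.59, adjusted p = 9e-06). With spike-in scaling and the block Soat2 was at 0.66 ± 0.43 and was not called (edgeR), nor was any other of the 73. That fit called 0 of all 13996 genes. Npc1 kept its call only without isotype replicate 4, with values from 0.33 to 0.34 in all 6 fits. Lpin1 was not called without BiTS replicate 2 (0.17), isotype replicate 4 (0.21) or either BiTS(mut) library (0.31). Dgat1 kept its call only without isotype replicate 1 (0.25 to 0.33 over the 6 fits), and Cyp27a1 only without isotype replicate 4 (−0.73 to −0.51 over the 6 fits). In the other treatment comparisons 0 of the 73 were called.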

How the data were processed

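The authors deposited raw counts per gene, 1 table per library, with exon intervals per the file headers. Per the submitters' processing notes the build was mm10 and DESeq2 was used; the aligner, counter, annotation and strand option are not given in the sources used. Symbols came from GENCODE M21 (GRCm38). The members and gene lists were chosen with earlier results of these data known. Counts were TMM-scaled, filtered with filterByExpr and tested with edgeR 4.0.16 (quasi-likelihood, two-sided, R 4.3.3, limma 3.58.1) on all 6 libraries, with Benjamini-Hochberg adjustment over 13996 genes; DESeq2 1.42.0 was an alternative. Spike-in transcripts (92) stayed out of totals and scaling. The unblocked fit was the main one. The replicate block is the title-number set: deviations from group means correlated at 0.73, 0.81 and 0.79 between same-set libraries, and the pairing comes from title numbering and these data, not from a stated design; library names number the isotype libraries 1 and 4 and the others 1 and 2. The steps were run on simulated data with the same spread for every gene. That run does not bear on genes whose libraries are uneven, and its results are not reported here. CPM per kilobase divides by all exon bases of a gene.

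Members that passed the filter could be named. Values by library were given for the members with the smallest p between the sets (up to 4 a role), called members, the extremes of BiTS against isotype in each role, and fixed members; of the further genes, called ones and the 4 with the smallest p in a list. Some were left out, and the results of some genes are not reported here. Alternatives were the block, DESeq2, RLE factors, no filter on low counts, spike-in scaling and leaving out each library. Of 159 symbols in the lists 1 had no gene entry. Promoter windows came from RefSeq.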

Additional observations from a re-analysis of the deposited data

How the results depend on the processing

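Precision is limited by 2 libraries per group. With the replicate block, the count of called members for BiTS against isotype went from 0 to 3, and it was also 3 with the block and no filter on low counts. It ran from 0 to 6 over the fits that leave out 1 library. For BiTS(mut) against isotype the leave-one-out counts ran from 0 to 2. For BiTS against BiTS(mut) every alternative gave 0. Between the sets the count of called members fell from 26 to 8 with spike-in scaling, while over all 13996 genes the count went from 7382 to 6123. Which members were called between the sets also changed with the library left out, as did the number called over all genes. The cause of these changes was not tested, except that leaving out a library leaves fewer samples.

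Spike-in scaling turned these log2 fold changes between the sets below 0: Hmgcs1 −0.042, Pmvk −0.29, Idi1 −0.50, Fdft1 −0.089, Lss −0.15, Cyp51 −0.31, Tm7sf2 −0.20, Msmo1 −0.26, Nsdhl −0.45, Hsd17b7 −0.74, Ebp −0.53, Sc5d −0.39, Srebf1 −0.51, Scap −0.54, Insig1 −0.35, Stard4 −0.70, Acaca −0.34, Acly −0.51, Elovl6 −0.57, Acss2 −0.50 and Fads2 −0.67. With spike-in scaling and the block, BiTS against BiTS(mut) gave Idi1 0.016, Acat2 0.12 and Hmgcs1 0.16.

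Leave-one-out values spanned 0 between the sets for Hsd17b7 (−0.073 to 0.11), Srebf2 (−0.063 to 0.037) and Fads2 (−0.032 to 0.18). For BiTS against isotype they ran with the block from −0.43 to −0.27 for Acat2, −0.33 to −0.24 for Hmgcs1 and −0.40 to −0.16 for Fasn. Without the block they ran from −0.92 to 0.22 for Acat2, −0.69 to 0.14 for Hmgcs1 and −0.86 to 0.37 for Fasn. For BiTS against BiTS(mut) they ran with the block from −0.37 to 0.078 for Idi1, −0.18 to 0.089 for Acat2 and −0.052 to 0.026 for Hmgcs1. Without the block they ran from −0.18 to −0.097 for Idi1, −0.57 to 0.40 for Acat2 and −0.41 to 0.36 for Hmgcs1. For BiTS(mut) against isotype they ran with the block from −0.71 to 0.0045 for Idi1, −0.45 to −0.18 for Acat2 and −0.32 to −0.23 for Hmgcs1. Without the block they ran from −0.72 to 0.019 for Idi1, −0.77 to 0.23 for Acat2 and −0.65 to 0.15 for Hmgcs1.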
